A study of Homo sapiens with 12 samples.

Results

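The genes described here are 10 feedback genes of fibroblast growth factor (FGF) signalling through the kinase ERK: SPRY1, SPRY2, SPRY4, SPRED1, SPRED2, DUSP4, DUSP6, ETV4, ETV5 and IL17RD. They were taken by symbol from the 25718 genes of the count tables, and 9 of the 10 passed the filter of a mean above 10 counts per sample, which 11451 genes passed. SPRY4 was the exception, with no count on any of its 4 listed transcripts in any sample. Of the 10 genes, 4 have a single listed transcript (SPRY2, SPRED1, ETV5 and IL17RD). The other 6 have several, and the counting appears to have left out reads that several transcripts share, since genes with 1 transcript held 92.84% of all counts. SPRY4 is therefore not measured here, and the values of SPRY1, SPRED2, DUSP4, DUSP6 and ETV4 come from the transcript with the highest mean count.

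The samples were 12 poly-A RNA-seq libraries in 4 groups of 3, made from H9, a widely used line of human embryonic stem cells. The cells had been transduced at a multiplicity of infection of 50 with a lentiviral vector from which doxycycline induces miR-10a or miR-10b, together with GFP, and were then differentiated towards ventral midbrain progenitors with the WNT pathway activator CT and 200 ng/ml SHH. For each vector, 3 libraries came from cells given doxycycline from day 11 and 3 from control cells given none, and all cells were harvested on day 14. The control cells carried the same vector. No library came from cells given doxycycline without an inducible miR-10, so effects of the drug and of the microRNA cannot be told apart. No sorting of the transduced cells is described, and the study describes colonies without the vector among cells transduced in this way. FGF-2 is named by the labels only for the stem cell stage. The vector, its integrations, the microRNA it expresses and the culture cannot be told apart in comparisons between the miR-10a and miR-10b cultures. The paper states that all groups were done in triplicate, but no source says that the replicates were separate cultures. The p-values therefore measure only the spread between these samples, which may be technical.

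FGF ligands bind receptor tyrosine kinases and activate ERK through Ras, Raf and MEK. ERK signalling in turn induces genes whose products restrain it: the Sprouty and SPRED proteins act around Ras and Raf, IL17RD (also called SEF) is a transmembrane antagonist, and DUSP4 and DUSP6 remove phosphates from MAP kinases. The ETS transcription factors ETV4 and ETV5 are induced by the same signal and carry it on to target genes, and several of these genes are used as markers of FGF signalling in the embryonic midbrain and hindbrain.

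The total count per library lay between 10545487 and 14165426, and every control library had a higher total than every doxycycline library of its vector. Levels are given as CPM, counts scaled to a library total of 1000000, and on this scale 3 counts correspond to 0.212 to 0.284 CPM. The chi-square of counts per degree of freedom lay between 1.2 and 1.81 in 10 of the 12 replicate pairs. It was 2.92 and 3.73 in the 2 pairs that included the miR-10b doxycycline library numbered 2. That library stood apart from its group, and results that change without it are given with both values. Of 16 neural progenitor and midbrain floor plate markers, 13 passed the count filter. LMX1B, a defining floor plate marker, was listed at 0 in every library, as were the pluripotency gene NANOG and the mesendoderm genes EOMES and MIXL1. Each of these has several transcripts, so a 0 here is not a measure of absence. OTX2 and PAX6, with 7 transcripts each, also failed the filter, at 2 to 10 and 0 to 1 counts per library. The microRNA precursors followed the labels. MIR10A had 711 to 731 CPM in the miR-10a doxycycline cultures and 0.641 to 1.37 CPM in their controls. MIR10B had 2541 to 2662 CPM in the miR-10b doxycycline cultures and 2.89 to 4.45 CPM in their controls.

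The sequences below show what the induced microRNAs could pair with in the feedback genes. A microRNA recognises messages mainly through its seed, bases 2 to 8, which pairs with the complementary 7 bases in a 3′UTR. The mature miR-10a-5p (RefSeq, GRCh37 chr17:46657266-46657288, minus strand, 23 bases) is printed with its seed in capitals. The same seed occurs once in the 110-base MIR10B hairpin. Next to it stand the sites of at least 7 matched bases found in the longest annotated 3′UTR of each of the 10 genes (GENCODE 44 on GRCh37), with the matched bases in capitals.
hsa-miR-10a-5p: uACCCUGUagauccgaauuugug
SPRED1 3′UTR, chr15:38646765-38646771, plus strand: tagggatctgACAGGGTtcatcactac
SPRY4 3′UTR, chr5:141693315-141693321, minus strand: aactgagtacCAGGGTAcctttaaaga

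SPRED1 (chr15:38545037-38649450, plus strand) was the only feedback gene past the count filter with such a site, which lies at position 2901 of a 3′UTR of 5585 bases and pairs with the whole seed. For comparison, 22.5% of the 9269 tested genes whose 3′UTR is annotated had a site of this kind, and 2.7% had the 8-base match. The unmeasured SPRY4 (chr5:141689992-141706020, minus strand) had the site shown, which pairs with bases 2 to 7 of the microRNA and has an A after them, and it also had 2 matches of 6 bases. DUSP4 had 2 matches of 6 bases. The other 7 genes had no match of 6 or more bases in these 3′UTRs. A match is a description of the sequence only.

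Among the 4 genes with a single transcript, levels can be compared per length of transcript, in RPKM (the CPM divided by the transcript's length in kilobases). In the miR-10a control cultures ETV5 had the highest mean RPKM (42.3), followed by SPRY2 (37.02). SPRED1 (25.9 RPKM) and IL17RD (25.6 RPKM) came next and did not differ from each other beyond the spread between replicates. In the miR-10b control cultures the means were 39.7 RPKM for ETV5, 29.9 RPKM for SPRY2, 25.6 RPKM for SPRED1 and 20.2 RPKM for IL17RD. SPRY2 and IL17RD were thus the genes whose level differed between the vectors, as is described further on.

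**Figure D1:**
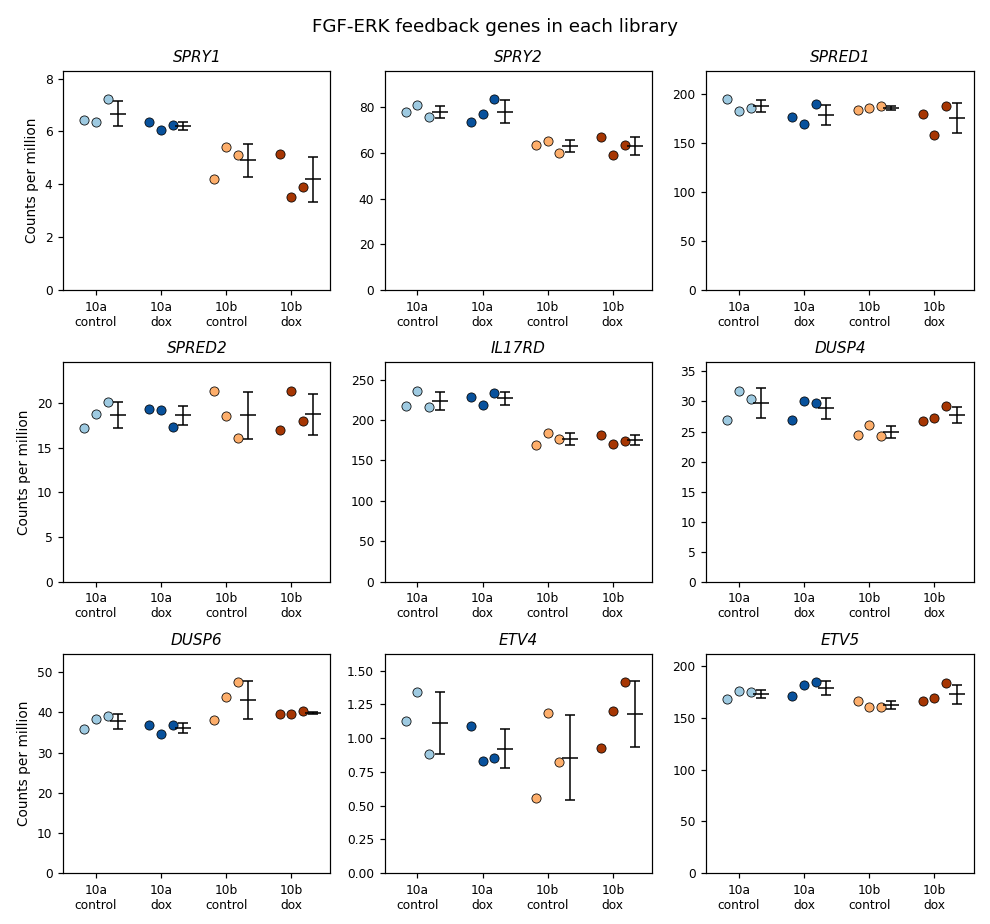
CPM (y axis, from 0) of the 9 feedback genes past the count filter in each of the 12 libraries, by vector and treatment; points are libraries and bars are the group mean with its SD (n = 3). SPRY2 and IL17RD lie at 73.8 to 83.5 and 216 to 236 CPM in the miR-10a cultures, above every miR-10b library, while control and doxycycline libraries of a vector lie on similar levels.

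The first question was whether induced miR-10 moved these genes. It did not do so detectably: none of the 9 passed an adjusted p of 0.05 with miR-10a, with miR-10b or in the average of both effects (edgeR quasi-likelihood test, Benjamini-Hochberg adjustment over 11451 genes). Of all tested genes, 1.21% passed with miR-10a, 15.3% with miR-10b and 13.9% in the average. At an unadjusted p under 0.05 there were 0 feedback genes with miR-10a, 2 with miR-10b (DUSP4 and ETV5) and 2 in the average (SPRED1 and ETV5), beside 1278, 3161 and 3038 of the 11451 tested genes. DESeq2 called 0 in each comparison, and gave no adjusted p for ETV4 in any of them nor for SPRY1 with miR-10a. The miR-10b effect also did not differ detectably from the miR-10a effect for any of them (0 of 9, with 0 at an unadjusted p under 0.05), where 1.96% of all tested genes passed.

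The width of the intervals shows how large a change could have gone unseen. For the 4 single-transcript genes, the 95% intervals of the change lay between -11.5% and 12.6% with both vectors. They were wider for the genes with few counts: with miR-10b, SPRY1 had an interval from -32.0% to 6.6% and ETV4 one from -13.1% to 114%.

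Among the inhibitors acting at the level of Ras and Raf, SPRY2 (chr13:80910111-80915261, minus strand) had 77.8, 80.9 and 75.6 CPM in the miR-10a controls and 73.8, 77.3 and 83.5 CPM with doxycycline. In the miR-10b cultures it had 63.7, 65.3 and 60.3 CPM without and 67.0, 59.2 and 63.4 CPM with doxycycline. Treated and control values of SPRY2 overlapped with both vectors, and the log2 fold change was -0.00 with miR-10a (95% interval -0.11 to 0.11, adjusted p = 1) and 0.00 with miR-10b (-0.11 to 0.11, adjusted p = 0.98). SPRY1 (chr4:124317950-124324915, plus strand), a Sprouty family member measured at 41 to 90 counts per library, had 6.43, 6.35 and 7.21 CPM in the miR-10a controls against 6.34, 6.04 and 6.26 CPM with doxycycline. Its values were 4.21, 5.41 and 5.11 CPM in the miR-10b controls and 5.13, 3.52 and 3.91 CPM with doxycycline. All 3 miR-10a doxycycline libraries lay below their controls, by a small margin and without passing the test (log2 fold change -0.10, SE 0.14, adjusted p = 0.86). SPRY1 was the only one of the 9 genes whose miR-10a groups did not overlap, where 18.2% of all tested genes did not.

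SPRED1, which together with neurofibromin restrains Ras and carries the seed match shown above, had 195, 183 and 185 CPM in the miR-10a controls and 177, 170 and 190 CPM with doxycycline. In the miR-10b cultures it had 183, 186 and 187 CPM without and 180, 158 and 188 CPM with doxycycline. In each vector 2 of the 3 doxycycline libraries lay below all controls and the third lay among or above them. The log2 fold change was -0.07 with miR-10a (SE 0.046, adjusted p = 0.62), -0.08 with miR-10b (SE 0.046, adjusted p = 0.24) and -0.08 on average (SE 0.032, adjusted p = 0.12), a mean change of -5.2% with a 95% interval from -9.4% to -0.7%. Without replicate 3 of the miR-10b doxycycline group it passed the test (log2 fold change -0.14 with miR-10b, adjusted p = 0.046, and 0.023 on average). Without the divergent replicate 2 of that group, at 158 CPM, it did not. The other libraries of the group had 180 and 188 CPM, beside 183, 186 and 187 CPM in the controls. Over the 19 alternatives the miR-10b change ran from -0.14 to -0.02, with adjusted p of up to 0.88. SPRED2, a related Ras inhibitor, had 16.1 to 21.4 CPM over the 12 libraries. Its groups overlapped in every comparison, and the log2 fold change was -0.00 for miR-10a (SE 0.098) and 0.01 for miR-10b (SE 0.097).

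IL17RD (chr3:57124010-57204334, minus strand) had 218, 236 and 216 CPM in the miR-10a controls and 228, 219 and 234 CPM with doxycycline. The miR-10b cultures had 169, 184 and 176 CPM without and 182, 170 and 174 CPM with doxycycline. The treated and control libraries of each vector were interleaved, and the log2 fold changes were 0.02 with miR-10a (95% interval -0.06 to 0.10) and -0.01 with miR-10b (-0.09 to 0.07).

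The dual-specificity phosphatases did not pass the test either. DUSP4, a nuclear MAP kinase phosphatase, had 24.5, 26.2 and 24.2 CPM in the miR-10b controls and 26.8, 27.3 and 29.2 CPM with doxycycline. These 2 groups did not overlap, and DUSP4 was the only one of the 9 genes of which this was true with miR-10b, where 28.7% of all tested genes did not overlap. Its log2 fold change of 0.15 (SE 0.075) had an unadjusted p of 0.0471 and an adjusted p of 0.17. With miR-10a, DUSP4 had 26.9, 31.8 and 30.4 CPM without and 26.9, 30.1 and 29.7 CPM with doxycycline, and a log2 fold change of -0.04 (SE 0.073). The difference between the vectors' effects on DUSP4, 0.20 on the log2 scale, had an adjusted p of 0.43.

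DUSP6 (chr12:89741012-89746278, minus strand), a cytoplasmic phosphatase of ERK itself, had 35.8, 38.4 and 39.2 CPM in the miR-10a controls and 36.95, 34.7 and 36.8 CPM with doxycycline. In the miR-10b controls it had 38.1, 43.9 and 47.5 CPM, and with doxycycline 39.6, 39.6 and 40.2 CPM. The miR-10b controls thus spread over a wider range than the doxycycline libraries, which lay between the lowest control and the other two. The log2 fold changes were -0.07 with miR-10a (SE 0.069, adjusted p = 0.80) and -0.12 with miR-10b (SE 0.065, adjusted p = 0.25). Replicate 1 of the miR-10b controls decided this call, since without it the miR-10b change was -0.20 with an adjusted p of 0.039, and that on average had an adjusted p of 0.049.

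Of the ETS factors, ETV5 (chr3:185764103-185828107, minus strand) had 169, 176 and 175 CPM in the miR-10a controls and 172, 182 and 185 CPM with doxycycline. It had 167, 160 and 161 CPM in the miR-10b controls and 166, 169 and 184 CPM with doxycycline. In each vector 2 of the 3 doxycycline libraries lay above all controls and the third lay within their range. Its log2 fold change was 0.05 with miR-10a (SE 0.040, adjusted p = 0.72), 0.09 with miR-10b (SE 0.040, adjusted p = 0.14) and 0.07 on average (SE 0.028, adjusted p = 0.11). ETV4 had few counts, at 7 to 19 or 0.556 to 1.41 CPM per library on 1 of its 5 transcripts, which is not a measure of weak expression. Its log2 fold changes of -0.29 with miR-10a (SE 0.325) and 0.45 with miR-10b (SE 0.32) were not distinguishable from 0.

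**Figure D2:**
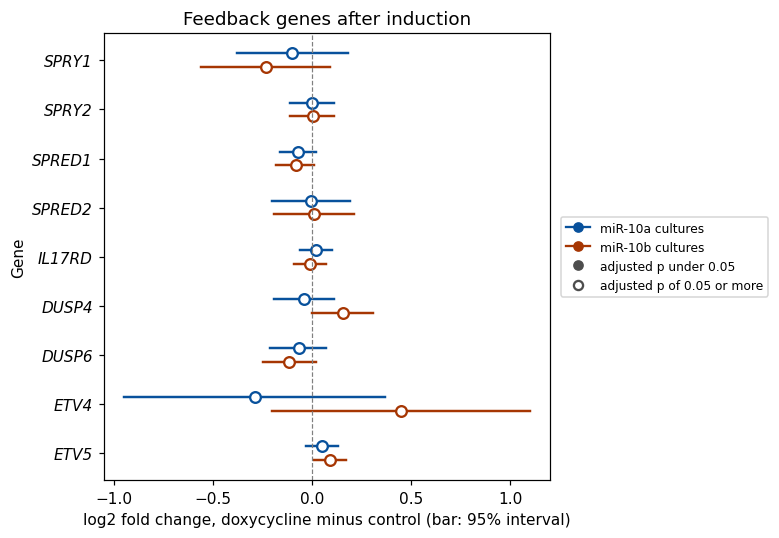
Log2 fold change between doxycycline and control cultures (x axis) for each feedback gene (y axis), for miR-10a and miR-10b; bars are 95% intervals of the edgeR fit and open points have an adjusted p of 0.05 or more. All points are open, and the intervals are narrow for SPRY2, SPRED1, IL17RD and ETV5 and widest for ETV4.

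The same genes did differ between the cultures of the vectors. In the control cultures, without doxycycline, 5 of the 9 passed the test between miR-10b and miR-10a cells, against 14.1% of all tested genes. The 9 genes were chosen with earlier results of these data known, so such shares are a description only. SPRY1, SPRY2, IL17RD and DUSP4 were lower in the miR-10b controls (4 of 9, where 6.72% of all tested genes were lower) and DUSP6 was higher. The values of 5 genes lay without overlap below the miR-10a controls, namely SPRY1, SPRY2, DUSP4, ETV5 and IL17RD, where the 2 groups of 30.1% of all tested genes did not overlap in either direction. The comparison between the doxycycline cultures of the vectors was added after the data had been seen. In it 3 of the 9 genes passed (SPRY1, SPRY2 and IL17RD, all lower in miR-10b cells), against 18.4% of all tested genes that passed and 9.41% that were lower. There the groups of 4 genes did not overlap, with SPRY1, SPRY2 and IL17RD lower and DUSP6 higher, against 31.4% of all tested genes. The 2 comparisons use different libraries of the same transduced cells. The microRNA precursors also differed between the control cultures, at low levels. MIR10B was higher in the miR-10b controls (mean 3.55 against 0.814 CPM, log2 difference 2.09, adjusted p = 4.9e-08). MIR10A, at 0 or 1 count per library there, was lower (log2 difference -4.05, adjusted p = 5.4e-06). Their part in the differences of the feedback genes was not tested.

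IL17RD was the gene with the lowest adjusted p. Its mean was 223 ± 11.0 CPM (SD, n = 3) in the miR-10a controls and 176 ± 7.07 CPM in the miR-10b controls, a difference of -0.34 on the log2 scale (SE 0.040, adjusted p = 3e-08) or -21.0% (95% interval -25.4% to -16.5%). In the doxycycline cultures the difference was -0.37 (SE 0.041, adjusted p = 7.5e-09). SPRY2 had means of 78.1 ± 2.64 and 63.1 ± 2.60 CPM in the miR-10a and miR-10b controls, a log2 difference of -0.31 (SE 0.052, adjusted p = 3.1e-05) or -19.3% (-25.0% to -13.1%), and the same -0.31 with doxycycline (SE 0.054, adjusted p = 5.2e-05). All 6 miR-10b libraries lay below all 6 miR-10a libraries for both genes, which passed the test under each of 19 alternative settings in both comparisons.

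SPRY1, with fewer counts and 4 listed transcripts, followed the same order, at 6.67 ± 0.475 CPM in the miR-10a and 4.91 ± 0.623 CPM in the miR-10b controls. Its log2 difference was -0.43 in the controls (SE 0.142, adjusted p = 0.033) and -0.57 with doxycycline (SE 0.157, adjusted p = 0.0086). The first passed under 13 of 19 alternatives and the second under 18 of 19. The second did not pass without the divergent replicate 2 of the miR-10b doxycycline group (adjusted p = 0.057). In the controls the call of SPRY1 was lost with DESeq2 (adjusted p = 0.14) and without any one of miR-10a replicates 1, 2 or 3 (0.059, 0.055 and 0.14) or miR-10b replicates 1 or 3 (0.18 and 0.062).

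DUSP4 and DUSP6 differed in opposite directions and less firmly. DUSP4 had 29.7 ± 2.49 CPM in the miR-10a and 24.9 ± 1.06 CPM in the miR-10b controls (log2 difference -0.25, SE 0.073, adjusted p = 0.013), but -0.06 between the doxycycline cultures (SE 0.075, adjusted p = 0.67). DUSP6 had 37.8 ± 1.79 and 43.2 ± 4.72 CPM (log2 difference 0.19, SE 0.065, adjusted p = 0.040), and 0.14 between the doxycycline cultures (SE 0.069, adjusted p = 0.17). The DUSP4 call in the controls passed under 14 and the DUSP6 call under 13 of 19 alternatives. The DUSP4 call was lost with DESeq2 (adjusted p = 0.050) and without miR-10a replicates 2 or 3 (0.13 and 0.056) or miR-10b replicates 1 or 3 (0.053 and 0.065). The DUSP6 call was lost with DESeq2 (0.089), without any one of miR-10a replicates 1, 2 and 3 (0.19, 0.079 and 0.052) and without miR-10b replicates 2 or 3 (0.12 and 0.33), the last at a log2 difference of 0.12 in place of 0.19.

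SPRED1, SPRED2, ETV4 and ETV5 did not pass in either comparison of the vectors. The differences of SPRED1 were -0.02 in the controls (95% interval -0.11 to 0.08) and -0.03 with doxycycline (-0.12 to 0.07), beside the lower IL17RD and SPRY2 of the same libraries. ETV5 was lower by 6.1% in the miR-10b controls (95% interval of the change -11.2% to -0.7%, adjusted p = 0.14).

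**Figure D3:**
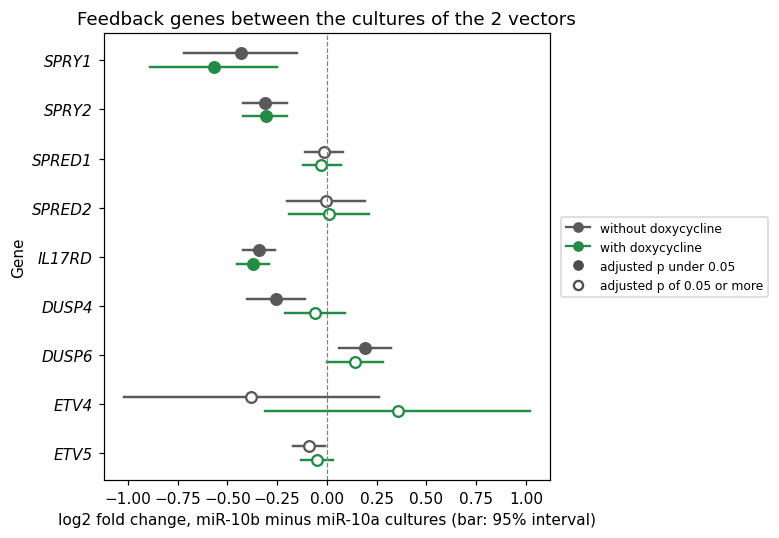
Log2 fold change between miR-10b and miR-10a cultures (x axis) for each feedback gene (y axis), without and with doxycycline; bars are 95% intervals of the edgeR fit and filled points have an adjusted p under 0.05. SPRY1, SPRY2 and IL17RD lie below 0 with filled points in both treatments, SPRED1 and SPRED2 lie near 0, and DUSP4 is filled only without doxycycline.

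Markers of other cell types moved with the vector, and their part in the differences of the feedback genes was not tested. In bulk samples, fewer cells of a type and less RNA per cell cannot be told apart. Of 5 tested fibroblast and mesenchymal markers out of 7, 4 were higher in the miR-10b controls, where 14.1% of all tested genes passed. These were COL3A1 (by 1.95), COL1A1 (1.16), LUM (1.07) and TWIST1 (0.92 on the log2 scale). COL1A2, at 35 to 85 counts per library, did not pass, with means of 5.10 CPM in the miR-10a and 4.42 CPM in the miR-10b controls. The sum of the list was 145.0 to 148 CPM in the miR-10a and 350.1 to 370 CPM in the miR-10b controls. Of the 13 tested neural progenitor and floor plate markers, 9 were higher, among them the floor plate gene CORIN (1.61). The 2 lower ones were the neural progenitor genes SOX1 (-1.23) and SOX3 (-0.76). Other progenitor genes went the other way: NES, VIM and SOX2 had means of 4595, 4246 and 1067 CPM in the miR-10a controls. Their means were 5160, 4842 and 1170 CPM in the miR-10b controls. Of 3 tested pluripotency markers out of 9, LIN28A and DPPA4 were lower (-0.44 and -0.43). NANOG, with several transcripts, was listed at 0 in all libraries and was not measured. None of 4 tested neuron markers out of 9 passed, nor did the single tested marker of the neural crest list of 6 or of the mesendoderm list of 8. EOMES and MIXL1, with several transcripts, were listed at 0 and were not measured. These marker genes were named after their values had been seen.

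SPRY2 and IL17RD lay lower together in the miR-10b cultures, and of their listed promoters only those that hold the letters GGAAGT are printed. SPRY1 was also lower, and none of its listed promoters holds these letters. The printed sequences were thus selected for the motif and do not link it to the lower genes. The windows run from 250 bases before to 50 after an annotated start (RefSeq, GRCh38.p14), and 12 such promoters were listed for 7 of the 10 genes. The letters GGAAGT, a core recognised by ETS factors, were searched on both strands and stand in capitals, also in their reverse complement ACTTCC.
SPRY2 promoter, chr13:80340059-80340358, minus strand: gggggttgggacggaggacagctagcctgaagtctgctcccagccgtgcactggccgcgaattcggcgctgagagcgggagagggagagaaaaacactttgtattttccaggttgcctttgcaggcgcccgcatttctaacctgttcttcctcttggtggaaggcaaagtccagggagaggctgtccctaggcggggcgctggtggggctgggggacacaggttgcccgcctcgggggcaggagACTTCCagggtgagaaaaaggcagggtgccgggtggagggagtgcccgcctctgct
IL17RD promoter, chr3:57170268-57170567, minus strand: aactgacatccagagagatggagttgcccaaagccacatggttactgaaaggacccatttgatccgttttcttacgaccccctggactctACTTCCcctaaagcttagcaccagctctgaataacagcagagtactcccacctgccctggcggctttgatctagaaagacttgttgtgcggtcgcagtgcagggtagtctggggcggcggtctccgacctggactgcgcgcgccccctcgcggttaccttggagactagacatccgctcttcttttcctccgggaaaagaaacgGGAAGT

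These were the 2 of the 12 promoters with the letters GGAAGT, which 22.8% of all 35116 promoters of the same length held. The second motif searched, CCGGAAG, which can overlap the first, occurred in 1 of the 12, a promoter of SPRY1, and in 10.3% of all promoters. SPRY2 had 2 more listed promoters and IL17RD had 1 more, without either motif. Both motifs were chosen with the values of the genes known. A match is not a site of binding, and its absence says only that the letters are not in the window.

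The genes whose pattern over the 12 libraries was most like the mean standardised level of the 9 feedback genes were GTF2H2B (Pearson r = 0.944), ZNF704 (0.944) and GPCPD1 (0.941). Since the libraries fall into those of 2 vectors, r was also computed within each vector over 6 libraries, where it was 0.83 and 0.85 for GTF2H2B, 0.89 and 0.90 for ZNF704, and 0.86 and 0.77 for GPCPD1 in the miR-10a and miR-10b cultures. These genes were picked for the highest r over the same libraries, so r within each vector is no separate check. All these values also share libraries and totals and are given as a description. The 9 feedback genes did not share a single pattern. Between pairs of them, r over the 12 libraries ran from -0.68 (SPRY2 and DUSP6) to 0.96 (SPRY2 and IL17RD). GTF2H2B has near-identical copies, between which its reads may be split.

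The rest of the pathway was followed in lists of genes, which were also chosen with earlier results of these data known. The list of FGF ligands also holds intracellular members of the family such as FGF11. None of its 11 tested genes out of 22 passed in either induction or in their average. Its median log2 fold change was -0.07 with miR-10b, where the median over all tested genes was 0.02. Between the control cultures, 4 genes of this list were lower in the miR-10b cells and 1, the intracellular FGF11, was higher, where 14.1% of all tested genes passed and 6.72% were lower. These genes of the list were named after their values had been seen. FGF2 had 87.8 ± 2.78 CPM in the miR-10a and 74.7 ± 1.48 CPM in the miR-10b controls (log2 difference -0.23), and FGF9 differed by -0.24. The FGF9 call was lost with DESeq2 (adjusted p = 0.067) and when any one of miR-10a controls 1 and 3 (0.095 and 0.078) or miR-10b controls 1, 2 and 3 (0.074, 0.065 and 0.061) was left out, and that of FGF11 without miR-10b control 1 (0.061). FGF10 (9 to 43 counts per library) differed by -1.58 and FGF19 (2 to 34 counts) by -2.45, both from few counts, and FGF11, an intracellular member of the family, was higher by 0.26. FGF2, FGF10 and FGF19 were also lower in the miR-10b cells with doxycycline. The median difference of the list between the controls was -0.23, and that of all tested genes was -0.01. FGF8, the organiser signal between midbrain and hindbrain, was listed at 0 or 1 count in every library on the most counted of 5 transcripts, so it was not measured. Of the 7 FGF receptors and co-receptors 3 were tested, none of which passed in any comparison, and FGFR1 and FGFR2, with 9 and 11 transcripts, had 4 to 13 and 4 to 10 counts per library and are poorly measured.

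Between receptor and ERK, 1 of 6 tested adaptors and Ras activators out of 12 passed with miR-10b, where 15.3% of all tested genes passed. NRAS, a Ras GTPase, had 394, 398 and 387 CPM in the miR-10b controls and 305, 284 and 315 CPM with doxycycline. All doxycycline libraries lay below all controls, and NRAS fell by 0.38 on the log2 scale with miR-10b (SE 0.036, adjusted p = 4.1e-10). With miR-10a the 3 doxycycline libraries (355, 379 and 376 CPM) also lay below the controls (399, 395 and 407 CPM), at a log2 fold change of -0.11 (SE 0.035, adjusted p = 0.13). This passed in a fit of the 6 miR-10a libraries (adjusted p = 0.024) and without replicate 2 of the miR-10b doxycycline libraries (0.020), which enters through the shared estimate of spread. The miR-10b effect on NRAS was the stronger one by 0.27 on the log2 scale (adjusted p = 0.0012). Of 10 tested Raf, MEK, ERK and RSK kinases out of 11, 2 passed with miR-10b, beside the same 15.3% of all tested genes. The scaffold KSR1 rose by 0.20 (adjusted p = 0.0064) and the ERK-activated kinase RPS6KA3 by 0.13 (adjusted p = 0.012) on the log2 scale. In the average over both vectors, where 13.9% of all tested genes passed, RPS6KA2 also passed, at -0.45 (adjusted p = 0.033) and 20 to 61 counts per library. It did not pass with counts summed over its 2 transcripts (-0.25, adjusted p = 0.19) or when any one of 6 libraries was left out, with adjusted p of up to 0.13. The KSR1 call with miR-10b was lost without replicate 2 of the doxycycline group (adjusted p = 0.051) or replicate 2 of the controls (0.062), and the RPS6KA3 call without replicate 3 of the doxycycline group (0.089), without replicate 2 of the controls (0.068) and with DESeq2 (0.055).

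Of 18 tested other inhibitors of the pathway out of 20, 3 fell and 1 rose with miR-10b, where 15.3% of all tested genes passed. RASA2, a Ras GTPase-activating protein, changed by -0.20 (adjusted p = 0.021), and the phosphatases DUSP7 and DUSP16 by -0.19 (adjusted p = 0.046) and -0.14 (adjusted p = 0.024) on the log2 scale. CBL, a ubiquitin ligase that acts on receptor kinases, rose by 0.12 (adjusted p = 0.035). None of these 4 calls was stable. The RASA2 call was lost without doxycycline replicate 1 (adjusted p = 0.17) or control 3 (0.10), the CBL call without doxycycline replicate 3 (0.15) or controls 1 or 3 (0.11 and 0.16), and the DUSP16 call without doxycycline replicate 3 (0.13) or controls 1 or 2 (0.057 and 0.076), all of miR-10b. The DUSP7 call was lost when any library but miR-10a doxycycline replicate 3 was left out (0.051 to 0.12). The median over the list was 0.03, beside 0.02 over all tested genes.

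Among these lists, the largest share of changed genes with miR-10b was that of the other genes induced by ERK signalling. Of 11 tested out of 18, 7 fell with miR-10b and none rose, against 15.3% of all tested genes that passed in either direction. The list was chosen with earlier results of these data known, so its share is a description only. With miR-10b 937 of all tested genes rose and 819 fell, which turned to 766 and 963 with TMM factors and to 498 and 808 with DESeq2. The median log2 fold change of the list was -0.16. The 7 genes were EPHA2 (-0.35, adjusted p = 2.7e-07), CCND1 (-0.16, adjusted p = 0.0002), IER3 (-0.49, adjusted p = 0.0005), EPHA4 (-0.15, adjusted p = 0.00095), EGR1 (-0.25, adjusted p = 0.0025), JUNB (-0.30, adjusted p = 0.0042) and MYC (-0.25, adjusted p = 0.024), of which EGR1 was named after its values had been seen. CCND1 encodes the cell cycle regulator cyclin D1, EPHA2 and EPHA4 are ephrin receptors, and EGR1, JUNB and MYC are transcription factors with many inputs besides ERK. The MYC call was lost without any one of replicates 2 or 3 of the miR-10b doxycycline group (adjusted p = 0.069 and 0.085) or replicates 2 or 3 of the miR-10b controls (0.071 and 0.089), and in a fit of the 6 miR-10b libraries alone (0.052).

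EPHA2 had 111, 113 and 118 CPM in the miR-10b controls and 92.4, 89.2 and 87.5 CPM with doxycycline, so the groups lay well apart. With miR-10a it had 121, 122 and 125 CPM without and 125, 118 and 114 CPM with doxycycline, which overlapped (log2 fold change -0.04, adjusted p = 0.78). EGR1 had 127, 134 and 144 CPM in the miR-10b controls and 102, 119 and 120 CPM with doxycycline, against 79.7, 90.9 and 100 CPM and 96.5, 99.6 and 108 CPM in the miR-10a cultures. The vectors' effects differed for EPHA2 (-0.30, adjusted p = 0.0030) and for EGR1 (-0.42, adjusted p = 0.0041). With miR-10a none of the 11 genes passed and 3 had an unadjusted p under 0.05. Markers of other cell types also moved with miR-10b, and those named here were named after their values had been seen. Of the 5 tested fibroblast and mesenchymal markers, COL1A1 (-0.60) and COL3A1 (-0.21) fell, where 15.3% of all tested genes passed. COL1A2 (-0.27), LUM (-0.20) and TWIST1 (-0.01) did not pass. The sum of the list was 350.1 to 370 CPM in the controls and 291 to 313 CPM with doxycycline. Of the 3 tested pluripotency markers only LIN28A fell (-0.34), which carried the sum of that list from 1231 to 1259 CPM to 997 to 1010 CPM. DPPA4 was at -0.03 (adjusted p = 0.70). LIN28A also fell with miR-10a (-0.14, adjusted p = 0.0032), and the paper names it as a miR-10 target lowered by both microRNAs. Of the 13 tested neural progenitor and floor plate markers 3 fell, namely CORIN (-0.77), SOX3 (-0.40) and NES (-0.14). Of the 4 tested neuron markers INA rose (0.09), with a sum of the list of 556 to 582 CPM in the controls and 597 to 623 CPM with doxycycline, and the single tested neural crest marker, ERBB3, rose (0.58, adjusted p = 0.029). Their part in the changes of the ERK-induced genes was not tested.

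Between the control cultures, 4 of the 11 tested ERK-induced genes were higher in the miR-10b cells, 2 were lower and 5 did not pass, where 14.1% of all tested genes passed. JUNB was higher in the miR-10b controls by 0.76 on the log2 scale, EGR1 by 0.58, IER3 by 0.48 and FOS by 0.41, while CCND1 and EPHA4 were lower, at -0.28 and -0.21. The immediate early genes MYC (-0.02) and IER2 (-0.04) did not pass. JUNB had 14.4, 15.1 and 14.2 CPM in the miR-10a controls and 25.3, 25.5 and 23.5 CPM in the miR-10b controls, without overlap. In the doxycycline cultures JUNB was still higher (0.37, adjusted p = 0.0012) and EGR1 did not pass (0.16, adjusted p = 0.061), although it did when miR-10a doxycycline replicate 3, miR-10a controls 1 or 3 or miR-10b doxycycline replicate 1 was left out (0.036, 0.042, 0.047 and 0.0064).

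**Figure D4:**
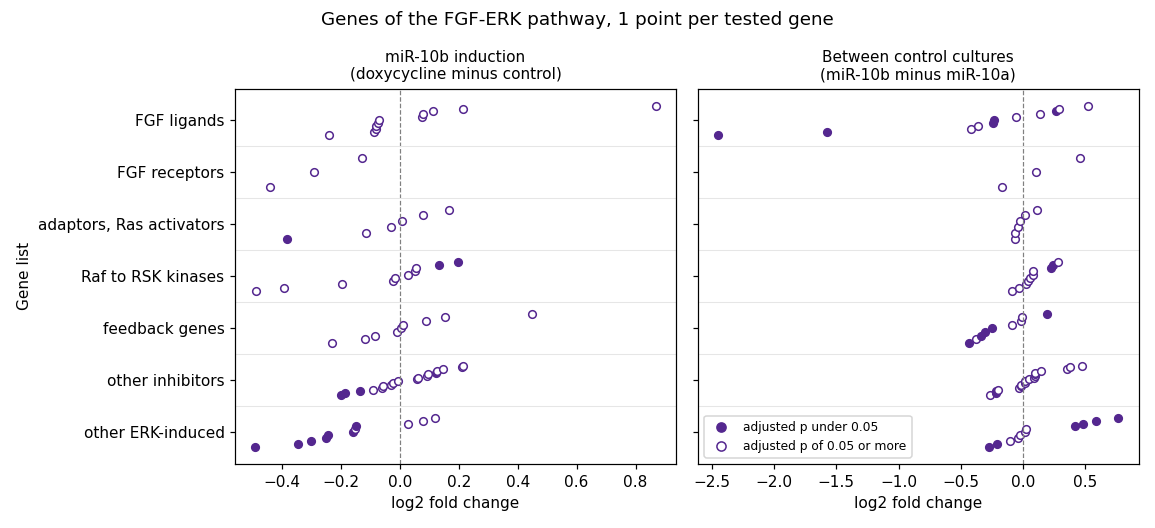
Log2 fold change (x axis) of each tested gene in 7 lists of the pathway (y axis, 1 point per gene), with miR-10b induction on the left and between the control cultures of the vectors on the right; filled points have an adjusted p under 0.05. On the left the feedback genes have open points on both sides of 0 and 7 of the other ERK-induced genes are filled below 0, whereas on the right 4 feedback genes are filled below 0 and 1 above.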

How the data were processed

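Poly-A RNA of 12 H9 samples (4 groups of 3) was sequenced in 50-bp single-end reads. The authors mapped the reads to hg19 and deposited raw counts per RefSeq transcript without normalization. The submitters' processing notes name STAR, Subread and featureCounts, with versions and counting settings not given in the sources used here. The methods and the labels name different RNA and library kits. Each table held 51799 rows for 48101 transcripts, and 3698 repeated rows with the same counts were dropped. Genes with several transcripts were represented by the transcript of highest mean count. Total counts were 10545487 to 14165426, so that 3 counts equal 0.212 to 0.284 CPM, a limit that covers counting error only.

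Tests used the quasi-likelihood functions of edgeR 4.0.16 (glmQLFit and glmQLFTest; R 4.3.3) on 11451 genes with a mean above 10 counts, with total counts as library sizes, 4 group means in 1 fit of 12 samples and Benjamini-Hochberg adjustment over these genes (threshold 0.05). The code was tested on simulated data. Comparisons were doxycycline against control for each vector, their average and difference, and miR-10b against miR-10a controls; the same between doxycycline cultures was added after the data had been seen. Alternatives were TMM factors, DESeq2 1.42.0, no filter or a mean above 50 counts, a replicate block, counts summed over transcripts, fits of the 6 samples compared, and leaving out each library. Seed matches were searched in GENCODE 44 3′UTRs on GRCh37, and promoters were taken from RefSeq (GRCh38.p14); Python 3.11.15 with pandas 2.3.3 was used for the other steps.

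The members and the lists were chosen with earlier results of these data known. Named are the 10 feedback genes, the 2 precursors, up to 6 genes of each other pathway list past the threshold with either vector or on average, by lowest adjusted p of the average, and the 3 genes most like the feedback genes by Pearson's r.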

Additional observations from a re-analysis of the deposited data

Results flagged for a closer look

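The effect of induction differed between the vectors for 3 genes of the pathway by the test of the difference itself, where 1.96% of all tested genes passed. These were 1 of 6 tested adaptors and Ras activators and 2 of 11 tested other ERK-induced genes. None of the 9 feedback genes passed. On the log2 scale, the miR-10b effect minus the miR-10a effect was -0.27 for NRAS, -0.30 for EPHA2 and -0.42 for EGR1. NRAS had 3 of 3 doxycycline libraries below all controls with each vector, EPHA2 and EGR1 with miR-10b only. The EGR1 difference did not pass with DESeq2 (adjusted p = 0.055).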

How the results depend on the processing

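Of 994 alternative values of the feedback genes, 966 kept their direction and side of the threshold, 18 lost a call, 4 gained one and 6 changed sign. Of 2210 values of the other named genes, 2112 kept both, 79 lost a call, 14 gained one and 5 changed sign. Uncalled values that changed sign by no more than 1 SE are counted as kept, and values without an adjusted p from DESeq2 are left out. All changes of sign came from leaving out a library, and none of these values passed the test before or after. With single libraries left out, SPRED2 ranged from -0.091 (without replicate 2 with doxycycline; -0.086 without control replicate 3) to 0.116 with miR-10b, from -0.112 to 0.090 between the controls (positive without miR-10b control 3) and from -0.093 (without miR-10b doxycycline 2) to 0.075 between the doxycycline cultures. SPRED1 ranged from -0.065 to 0.056 in the difference of effects and from -0.080 to 0.041 between the doxycycline cultures, positive without miR-10b doxycycline 2. FGF19 ranged from -0.016 (without that library) to 1.265 with miR-10b and from -0.098 to 0.543 on average. FGF9 ranged from -0.107 to 0.064 with miR-10a and RPS6KA2 from -0.288 to 0.204 in the difference of effects (both positive without miR-10a doxycycline 2), and CBL from -0.029 (without miR-10a control 3) to 0.064 between the controls.

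With DESeq2, 2 feedback genes in place of 5 passed between the controls. Over all genes, 272 in place of 139 passed with miR-10a in a fit of those 6 samples, and 343 in place of 224 in the difference of effects without a count filter. Leaving out each library in turn gave 78 to 268 genes with miR-10a (highest without replicate 2 of the miR-10b doxycycline group), 1216 to 1796 with miR-10b, 1203 to 1719 on average, 140 to 340 in the difference of effects, 1231 to 1992 between the controls and 1597 to 2098 between the doxycycline cultures. For the feedback genes it gave 0 to 0, 0 to 1, 0 to 1, 0 to 0, 2 to 5 and 2 to 3. On average over both vectors 878 genes rose and 712 fell, against 665 and 852 with TMM factors and 459 and 740 with DESeq2. ETV4 was not tested above a mean of 50 counts, and the average and the difference of effects have no fit of 6 samples.

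Replicate numbers did not pair the libraries: deviations from the group means correlated at a mean r of 0.0213 between libraries with the same number (-0.073 to 0.206) and -0.0107 between others. The replicate block gave 0, 0, 0, 0, 5 and 3 feedback genes in the 6 comparisons, as without it, and 166, 1826, 1680, 274, 1689 and 2184 genes in all. Reads shared between transcripts limit SPRY4, FGFR1 and FGF8. Low counts limit SPRY1 and ETV4, which have 4 and 5 listed transcripts and may have lost shared reads as well.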
